A study of Mus musculus with 9 samples.

Results

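The 9 genes described here are the Reg lectins Reg1, Reg3a, Reg3b, Reg3g and Reg4 and the genes Lyz1, Lyz2, Mmp7 and Itln1. Products of several of these genes defend the gut lining against microbes. The 9 genes, found by their symbols, are among 24505 listed in a table of nascent transcription from mouse duodenum mini-gut (organoid) cultures. They were chosen on earlier results of these data: Reg3b fell the most between the WENRC and ENRI cultures. That contrast is therefore only described, with no p, for any of the 9, and Reg3b is given without a test throughout. GRO-seq, which reads RNA being extended by polymerase in isolated nuclei, covered 3 cultures with 2 libraries each: RANKL, labelled intestinal M cell; ENRI, labelled enterocyte; and WENRC, labelled intestinal stem cell. The labels give the duodenum as tissue and no strain, age or allele, and do not spell out the culture names. ENRI and WENRC libraries each carry a mouse number, 1 or 2, and RANKL libraries only a replicate number. ChIP-seq of H3K27me3, the repressive histone mark written by Polycomb complex PRC2, covered RANKL (2 libraries, pooled by the authors) and WENRC (1 library).

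Reg proteins are small secreted C-type lectins. Reg3b and Reg3g bind bacterial surfaces and are best known as antimicrobial products of the small intestine, where IL-22 acting through STAT3, and microbial signals acting through MyD88, raise them. Paneth cells sit at the crypt base and release lysozyme (Lyz1), alpha-defensins and Mmp7, the protease that cuts mouse pro-alpha-defensins into their active form. Lyz2 is the lysozyme of macrophages and neutrophils, Itln1 encodes intelectin, which binds microbial sugars, Reg4 marks secretory cells, and Reg1 is strongly expressed in the exocrine pancreas and in regenerating gut.

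GRO-seq values are on the log2 scale as the authors deposited them, normalized between libraries, and a change is the difference between the means of 2 cultures on that scale. The transform is not given and may draw values of weakly transcribed genes together, so their changes may be understated. GRO-seq depth is unknown. Replicates lay closest in RANKL (SD of the replicate difference over 16563 tested genes 0.22), then WENRC (0.421) and ENRI (0.699). The file header names the RANKL libraries as merged reads from resequencing, unlike the rest, so culture and sequencing run cannot be told apart for RANKL. Markers were checked against the labels. All 12 M cell markers were called higher in RANKL than in ENRI, as were 10.4% of tested genes. Their median change was 4.07, and Gp2 and Sox8 met the minimum for testing through RANKL. Of 10 stem markers, 8 were called higher in WENRC than in ENRI, as were 4.85% of tested genes. Of 14 enterocyte markers, 12 were called higher in ENRI than in WENRC, as were 9.74%. With only the 4 ENRI and WENRC libraries fitted, 0 genes were called between these 2 cultures. A list was summed as the log2 of its genes' unlogged values added together, without correction for length. Long or strongly transcribed genes therefore weigh most in a sum. The 3 marker lists summed to 14.78 and 14.86 (RANKL, M cell), 14.58 and 14.69 (WENRC, stem) and 16.25 and 17.15 (ENRI, enterocyte). The stem list did not set WENRC apart from RANKL, where it summed to 14.42 and 14.48, with 1 marker called higher and 1 lower in RANKL (median -0.07). In bulk cultures, fewer cells of a type and less RNA per cell cannot be told apart.

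Reg3b, Reg3a, Reg1 and Reg3g lie together in 98.0 kb of chromosome 6 (mm9, 78320879 to 78418868), with Reg3d and Reg2 between them. The 250 bases before the start of each are shown here because these neighbours split into different patterns below. They come from the RefSeq promoter table (GRCm38.p6), which held all 9 genes, and run 5′ to 3′ on the gene's strand: chr6:78370635-78370884 (plus) for Reg3b, chr6:78468875-78469124 (minus) for Reg3g, chr6:78425733-78425982 (plus) for Reg1 and chr6:78380459-78380708 (plus) for Reg3a. Capitals mark matches to 5 motifs searched on both strands.
Reg3b: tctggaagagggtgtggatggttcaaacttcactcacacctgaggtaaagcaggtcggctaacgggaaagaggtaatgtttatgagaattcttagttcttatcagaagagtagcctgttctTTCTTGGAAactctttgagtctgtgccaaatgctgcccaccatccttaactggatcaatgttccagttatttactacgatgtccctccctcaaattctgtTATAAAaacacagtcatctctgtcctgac
Reg3g: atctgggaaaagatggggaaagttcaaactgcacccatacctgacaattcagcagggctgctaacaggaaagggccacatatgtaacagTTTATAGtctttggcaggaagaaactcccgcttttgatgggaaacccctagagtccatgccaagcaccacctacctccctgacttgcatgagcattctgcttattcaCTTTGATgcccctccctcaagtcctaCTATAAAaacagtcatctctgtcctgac
Reg1: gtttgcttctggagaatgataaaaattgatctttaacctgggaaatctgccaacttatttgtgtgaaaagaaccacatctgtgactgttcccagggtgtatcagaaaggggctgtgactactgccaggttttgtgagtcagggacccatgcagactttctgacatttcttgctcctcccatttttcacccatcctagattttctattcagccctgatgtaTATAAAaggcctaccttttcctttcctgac
Reg3a: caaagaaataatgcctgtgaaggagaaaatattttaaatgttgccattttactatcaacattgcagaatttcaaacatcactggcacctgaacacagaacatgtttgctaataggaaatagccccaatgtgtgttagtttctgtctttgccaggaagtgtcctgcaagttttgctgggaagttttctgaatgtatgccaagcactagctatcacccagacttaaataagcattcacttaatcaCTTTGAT
Of these 4, only Reg3b held the STAT motif TTCNNNGAA, as TTCTTGGAA at bases -129 to -121 from the start; 7.02% of 32841 promoters of this length held it, among them Reg3d at -238 to -230. The TATA box TATAAA lay at -29 to -24 in Reg3b, -30 to -25 in Reg1 and -27 to -22 in Reg3g, and was in 12.4% of promoters. Reg3a held only the TCF/LEF motif CTTTGAT, at -7 to -1, which Reg3g held at -54 to -48 (3.21% of promoters). Reg3g also held the CDX motif TTTATNG at -161 to -155 and, on the minus strand, -28 to -22, both overlapping TATAAA matches (9.81% of promoters). None of the 4 held the GATA motif AGATAA, found in 9.99% of promoters and among the 9 genes in Reg4 and Mmp7. Aligned end to end, the windows of Reg3b and Reg3g were 68.4% identical, while the other pairs of the 6 cluster genes ranged from 45.1% to 56.9%. These matches are letters in a window, not measured binding sites.

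Reg3b, whose product binds Gram-negative bacteria, had log2 values of 9.81 and 10.27 in ENRI, 5.38 and 5.58 in RANKL and 3.26 and 3.84 in WENRC. The cultures did not overlap: ENRI was far above the others and WENRC lowest. Its mean in WENRC was below that in ENRI by 6.49 (mouse 1 -6.55, mouse 2 -6.43), the value that chose the genes. The mean in RANKL was 4.56 below ENRI and 1.93 above WENRC. Reg3b lies on the plus strand of chromosome 6 (mm9, 78320879 to 78323460; NM_011036).

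Reg3g, its close paralog with activity against Gram-positive bacteria, was ordered differently. Reg3g values were 9.29 and 9.44 in RANKL, 7.20 and 6.97 in ENRI and 4.08 and 4.55 in WENRC, again without overlap but with RANKL highest. Reg3g rose in RANKL by 2.27 over ENRI (SE 0.22, FDR 0.00349) and by 5.05 over WENRC (SE 0.22, FDR 0.00123), where FDR is limma's Benjamini-Hochberg adjusted p over 16563 genes. Within a library, Reg3g stood above Reg3b by 3.91 and 3.85 in RANKL, below it by log2 differences of -2.61 and -3.30 in ENRI, and above it by 0.82 and 0.71 in WENRC. So the same 2 genes changed places between RANKL and ENRI; no test is given, because Reg3b is in it. Reg3g sits at the other end of the cluster on the minus strand (mm9, 78416263 to 78418868; NM_011260). How reads that match both paralogs were assigned is not given in the sources used here.

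Reg1, a lectin tied to tissue regeneration, had values of 11.15 and 11.71 in ENRI, against 7.55 and 7.86 in RANKL and 6.91 and 5.40 in WENRC. The cultures did not overlap, and the 2 WENRC libraries were further apart than those of any other culture for this gene. Reg1 fell in RANKL against ENRI by 3.72 (SE 0.49, FDR 0.00702), and its RANKL mean was 1.55 above WENRC (SE 0.49, FDR 0.0972), short of the threshold of 0.05. WENRC minus ENRI was -4.24 in mouse 1 and -6.32 in mouse 2. Reg1 lies on the plus strand of chromosome 6 (mm9, 78375977 to 78378660; NM_009042).

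Reg3a, another lectin of this family, followed the order of Reg3b: 6.58 and 7.14 in ENRI, 4.73 and 4.93 in RANKL, 3.35 and 3.97 in WENRC, with no overlap. Reg3a fell in RANKL against ENRI by 2.03 (SE 0.30, FDR 0.00989), and its mean was 1.17 higher in RANKL than in WENRC (SE 0.30, FDR 0.0587). WENRC minus ENRI was -3.23 and -3.17 in the 2 mice. It lies on the plus strand of chromosome 6 (mm9, 78330703 to 78333833; NM_011259).

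Reg3d and Reg2, the other Reg genes of the cluster, are not among the 9. Reg3d had 7.12 and 7.38 in ENRI, 4.27 and 4.06 in RANKL and 3.14 and 3.79 in WENRC. It fell in RANKL against ENRI by 3.09 (SE 0.27, FDR 0.00288), while 0.69 over WENRC did not pass (FDR 0.155). Reg2 was at or below 1.08 in all 6 libraries and was not tested. The next listed gene within 500 kb, Ctnna2, encoding a catenin, was not called in either RANKL comparison (-0.31, FDR 0.83 and 0.69, FDR 0.651). Along the cluster, therefore, the 3 genes at the Reg3b end and Reg1 were highest in ENRI, and Reg3g alone of the 5 tested Reg genes there was highest in RANKL.

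**Figure D1:**
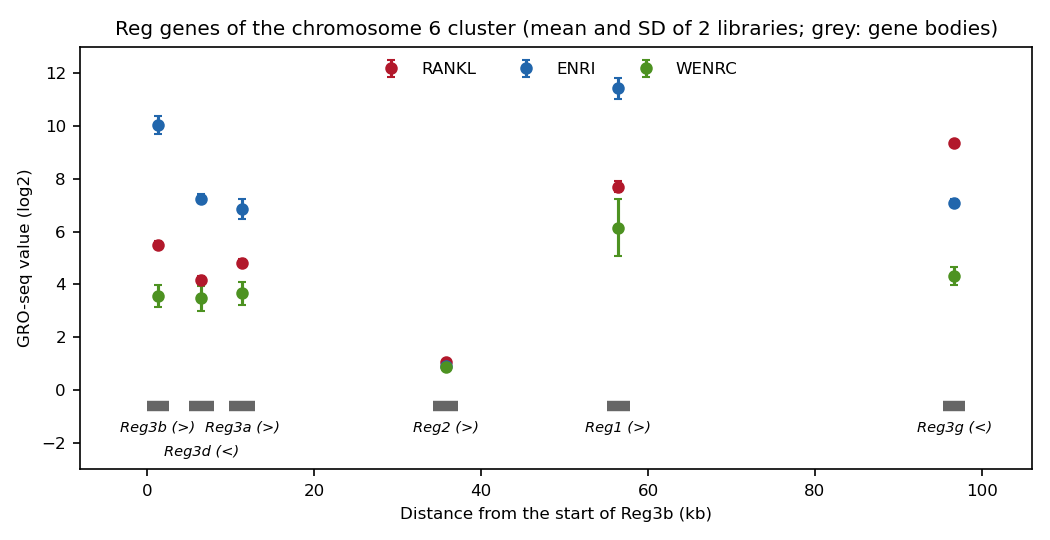
Mean log2 GRO-seq value with SD of 2 libraries for the 6 Reg genes of the chromosome 6 cluster, against distance in kb from the start of Reg3b; grey bars are gene bodies and arrows give the strand. ENRI lies on top at Reg3b, Reg3d, Reg3a and Reg1, RANKL lies on top at Reg3g (9.36 against 7.09 in ENRI), and Reg2 is near 1 in every culture.

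Reg4, on chromosome 3 away from the cluster (mm9, 98026079 to 98040671, plus strand; NM_026328), marks secretory cells of the crypt. Its values were 8.03 and 8.17 in RANKL, 6.81 and 7.34 in ENRI and 5.19 and 6.17 in WENRC, again with no overlap. Reg4 rose in RANKL by 2.42 over WENRC (SE 0.36, FDR 0.0133). The 1.03 by which RANKL exceeded ENRI (SE 0.36) did not pass (FDR 0.0973).

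Mmp7, the defensin-processing protease, had 7.56 and 7.51 in RANKL, 5.19 and 5.40 in ENRI and 6.11 and 6.45 in WENRC. RANKL was highest and ENRI lowest, without overlap. Mmp7 rose in RANKL by 2.24 over ENRI (SE 0.20, FDR 0.00312) and by 1.25 over WENRC (SE 0.20, FDR 0.0162). The gene lies on chromosome 9 (mm9, 7692090 to 7699585, plus strand; NM_010810) and overlaps AV064505 on the other strand, which rose in RANKL by 2.70 (FDR 0.00207) and 1.68 (FDR 0.0074). Strand handling is not stated, so reads of the pair may not be separable. Mmp20, the next gene upstream on the same strand, had 8.18 and 8.18 in RANKL, 4.47 and 5.16 in ENRI and 5.19 and 6.15 in WENRC. It rose in RANKL by 3.37 (FDR 0.00471) and 2.51 (FDR 0.0139), and the downstream neighbour Tmem123 by 1.42 (FDR 0.00366) and 0.92 (FDR 0.0147). The part of these neighbours in the Mmp7 values was not tested.

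Lyz1, the Paneth lysozyme, had 8.09 and 7.99 in RANKL, 5.46 and 7.33 in ENRI and 6.40 and 7.30 in WENRC. RANKL lay above both other cultures, which overlapped each other, with mouse 1 below mouse 2 in both. Neither comparison passed: 1.65 over ENRI (SE 0.62, FDR 0.113) and 1.19 over WENRC (SE 0.62, FDR 0.265). Lyz1 and Lyz2 are neighbours on the minus strand of chromosome 10 (mm9, 116724851 to 116729924, NM_013590, and 116714597 to 116719328, NM_017372), and their 250-base upstream windows were 79.4% identical. Lyz2 had 3.44 and 3.48 in RANKL, 3.03 and 3.18 in ENRI and 3.14 and 3.21 in WENRC, and met the minimum for testing (log2 of 10 in 2 libraries) only through RANKL. Its changes of 0.35 (SE 0.16, FDR 0.174) and 0.28 (SE 0.16, FDR 0.308) did not pass. As with the Reg3 pair, reads shared by the 2 lysozyme genes leave their values uncertain.

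Itln1, encoding intelectin, had 7.48 and 7.81 in RANKL, 6.82 and 7.99 in ENRI and 7.20 and 7.29 in WENRC. The ENRI libraries spanned the values of both other cultures. Changes were 0.24 in RANKL over ENRI (SE 0.38, FDR 0.695) and 0.40 over WENRC (SE 0.38, FDR 0.544). It lies on chromosome 1 (mm9, 173448255 to 173465425, minus strand; NM_010584).

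**Figure D2:**
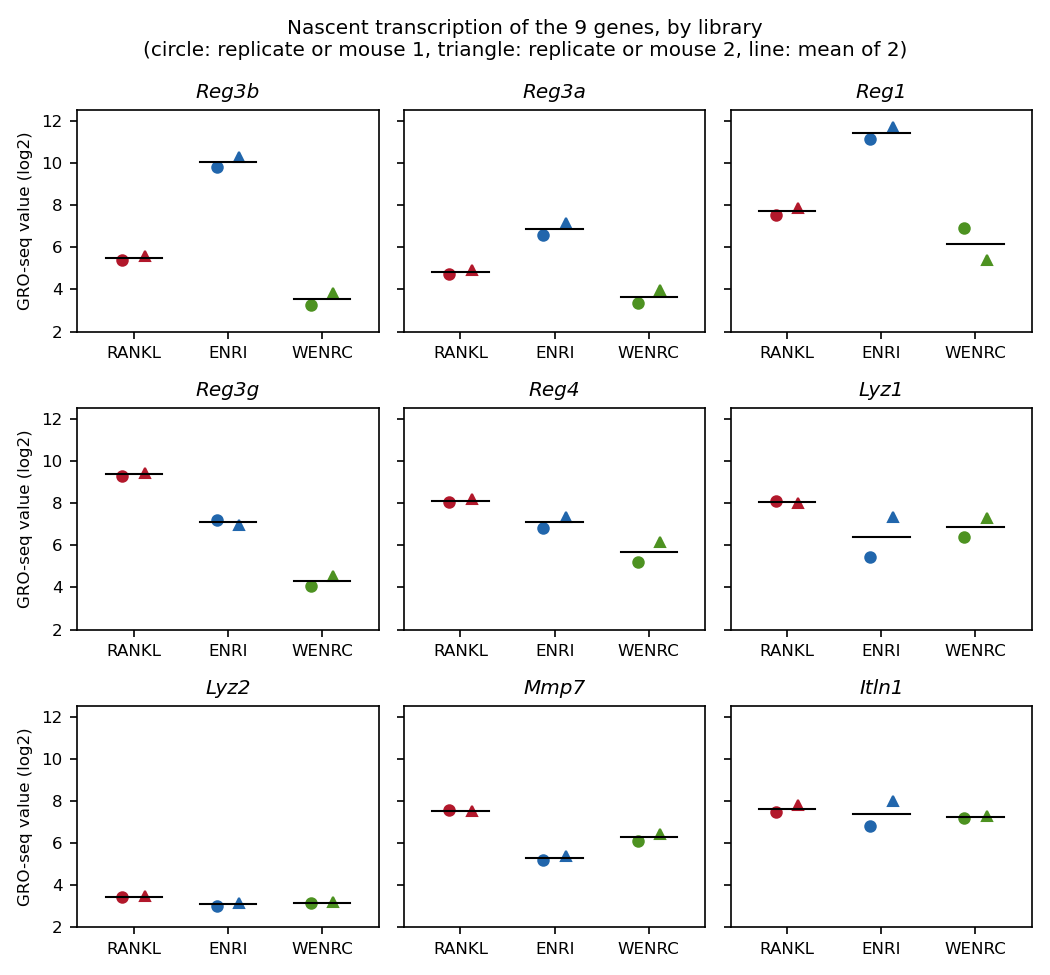
Log2 GRO-seq value of each of the 9 genes in the 6 libraries; circles are replicate or mouse 1, triangles replicate or mouse 2, and lines the mean of 2. Reg3b, Reg3a and Reg1 peak in ENRI, Reg3g, Reg4 and Mmp7 in RANKL, and Lyz2 stays between 3.03 and 3.48.

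Among the 8 genes other than Reg3b, 2 were called higher (Mmp7, Reg3g) and 2 lower (Reg1, Reg3a) in RANKL than in ENRI; over all tested genes 10.4% were called higher and 10.5% lower. The median change of the 8 was 0.69, against 0.00 for all tested genes. Without either RANKL library no gene of the 8 was called, with FDRs of 0.057 to 0.067 for Reg3g, 0.057 to 0.062 for Mmp7, 0.079 for Reg1 and 0.093 to 0.10 for Reg3a and unchanged directions. The lone RANKL library was then assumed to vary like the other cultures. Without ENRI 2, the changes of Reg4, Lyz1 and Itln1 were 1.29, 2.59 and 0.82. Without ENRI 1 they were 0.76, 0.71 and -0.35.

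Against WENRC, 3 of the 8 were called higher in RANKL (Mmp7, Reg3g, Reg4) and 0 lower, where 8.53% and 3.62% of tested genes were called; the median was 1.22 against -0.01. All 8 changes were positive, as were those in the authors' deposited table, so lower calls would be 0 at any threshold. In 9 of 9 genes both RANKL values lay above both WENRC values, as did 34.1% of tested genes; Reg3b was chosen with these WENRC values and Lyz2 passed the filter only through RANKL. Without RANKL 1 or RANKL 2 no call was left (Reg3g FDR 0.052 and 0.054), Mmp7 was also lost without WENRC 1 (0.12) or WENRC 2 (0.077), and Reg4 without WENRC 1 (0.065). With only the 4 libraries compared, Reg1, Reg3a and Lyz1 were called as well. Calls over all 16563 tested genes then rose from 2012 to 5194. Both comparisons share the RANKL libraries, so they are not independent of each other.

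Between WENRC and ENRI, the contrast that chose the genes, 4.85% of all tested genes were called higher and 9.74% lower, and the values of the 9 genes are only described. WENRC minus ENRI was -3.13 and -2.42 for Reg3g, -1.62 and -1.17 for Reg4, and 0.92 and 1.06 for Mmp7 in mice 1 and 2.

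The authors' deposited table gives larger changes for several of the genes. For RANKL minus WENRC it lists 7.30 for Reg3g (adjusted p 2.73e-59), 4.56 for Reg3b, 3.80 for Reg3a (adjusted p 0.0504) and 3.31 for Reg4 (adjusted p 2.99e-11). The authors' deposited table also passes 3 results that limma did not: Reg4 against ENRI (1.31, adjusted p 0.0191), Reg1 against WENRC (1.66, adjusted p 0.0264) and Lyz1 against WENRC (1.48, adjusted p 0.00237). For WENRC minus ENRI the authors' deposited table lists -10.0 for Reg3b.

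Levels can be set side by side only per length, here as the mean log2 value minus log2 of the gene length in kb. In ENRI the order was Reg1 (10.01), Reg3b (8.67), Reg3g (5.71), Reg3a (5.21), Lyz1 (4.05), Itln1 (3.30), Reg4 (3.21), Mmp7 (2.39) and Lyz2 (0.87). In RANKL it was Reg3g (7.98), Reg1 (6.28), Lyz1 (5.70), Mmp7 (4.63), Reg4 (4.23), Reg3b (4.11), Itln1 (3.54), Reg3a (3.18) and Lyz2 (1.22). In WENRC it was Reg1 (4.73), Lyz1 (4.51), Mmp7 (3.38), Itln1 (3.14), Reg3g (2.93), Reg3b (2.18), Reg3a (2.02), Reg4 (1.81) and Lyz2 (0.94). Neighbours that did not differ beyond their SDs included Reg4 and Reg3b in RANKL (SD 0.10 and 0.15), Itln1 and Reg4 in ENRI (SD 0.83 and 0.38), and Reg1 and Lyz1 in WENRC (SD 1.07 and 0.64). Reg1 thus led in ENRI and Reg3g in RANKL, no single gene led in WENRC beyond its spread, and Lyz2 was last in each.

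The genes most like Reg3b, by root mean square difference of values centred on each gene's mean over the 6 libraries, were Cyp2c38, a cytochrome P450 (0.77), the retinaldehyde dehydrogenase Aldh1a1 (0.84), the sulfate transporter Slc13a1 (0.84), the gluconeogenic enzyme Pck1 (0.91) and the gamma-glutamyltransferase Ggt1 (0.92). All 5 were highest in ENRI, for example Aldh1a1 at 12.09 against 8.04 in RANKL and 7.48 in WENRC. Genes near Lyz1 by the same measure included Grk3 (0.19), the water channel Aqp4 (0.25), Plb1 (0.25) and Tgfbr3 (0.25). These were highest in RANKL, for example Grk3 at 7.49 against 5.78 in ENRI and 6.04 in WENRC.

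The other Paneth genes stood higher in RANKL for the most part. Of 26 listed, 21 could be tested: 14 rose and 3 fell against ENRI, with a median change of 1.38, and 11 rose and 2 fell against WENRC, with a median of 0.79. Over all tested genes, 10.4% rose and 10.5% fell against ENRI, and 8.53% rose and 3.62% fell against WENRC. Kit, the stem cell factor receptor, rose by 2.89 over ENRI (FDR 0.00104) and 1.68 over WENRC (FDR 0.00355), and Nod2, the muramyl dipeptide sensor, by 2.61 (FDR 0.00215) and 2.54 (FDR 0.00254). The alpha-defensin Defa23 rose by 3.10 (FDR 0.00315) and 2.31 (FDR 0.00792), and Defa30 by 3.0 (FDR 0.0053) and 2.82 (FDR 0.00845). All 9 tested Defa genes rose over ENRI, and 8 of them over WENRC. However, Defa21 (0.88 and 0.76) met the minimum for testing only through RANKL. Its 2 calls, included in the counts above, therefore say nothing of the family or the list. The Defa genes are near-identical copies whose reads could be split or shared. The single values are therefore uncertain, and the Defa calls may not be separate ones in the list's counts. The genes that fell against ENRI, named after their values were seen, were the secretory stress factor Xbp1 (-1.35), Nupr1 (-1.39) and the Wnt receptor Fzd5 (-0.98). Xbp1 (-0.86) and Nupr1 (-1.44) also fell against WENRC. Ang4, an antimicrobial ribonuclease, did not pass (0.78, FDR 0.065, and 0.79, FDR 0.0864).

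Defa5, Defa26, Mptx1 and Mptx2 were below the minimum. Without RANKL 1 or RANKL 2 the calls over ENRI dropped to 2 and 1 and those over WENRC to 0, with medians of 1.39 and 1.43 and of 0.67 and 0.95; without WENRC 1 or WENRC 2 the latter were 2 and 3.

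**Figure D3:**
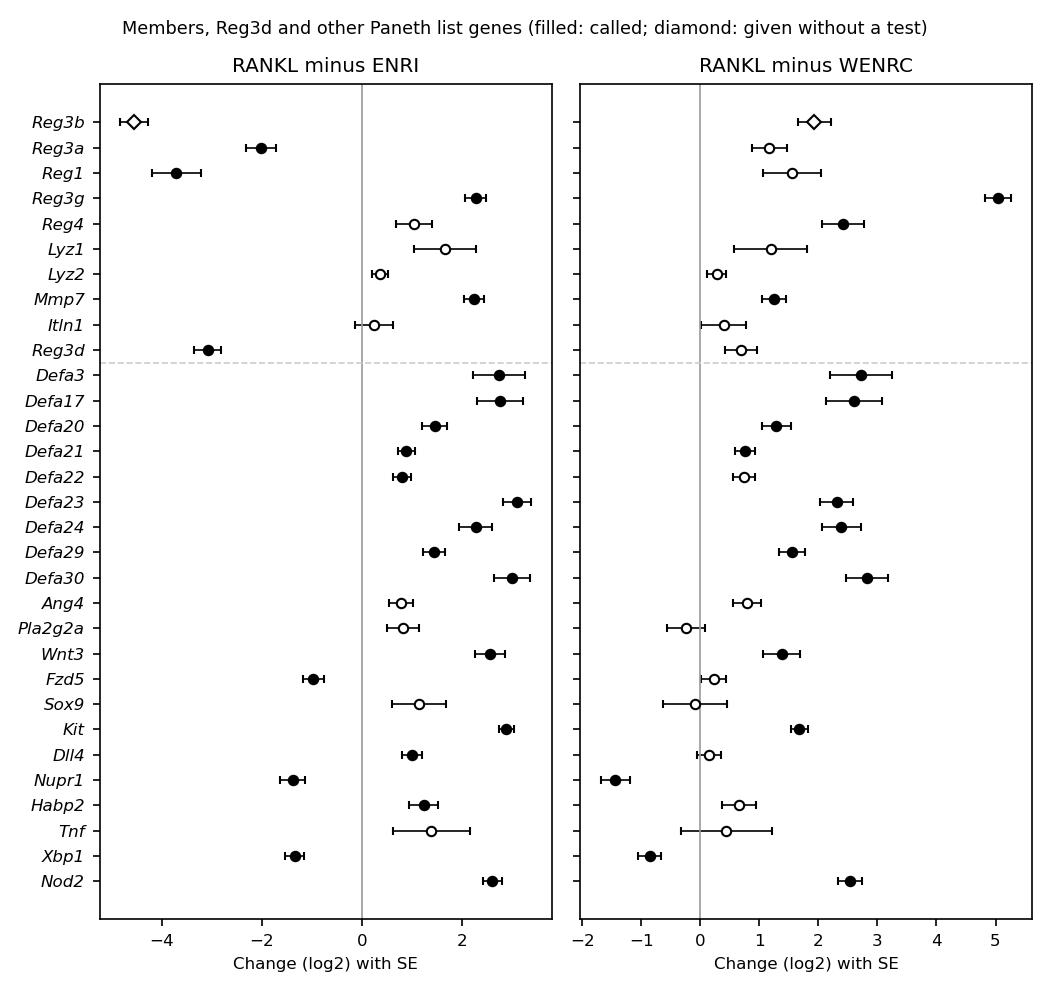
Change in log2 GRO-seq value with its SE for the 9 genes, Reg3d and, under the dashed line, the 21 tested Paneth list genes, in RANKL minus ENRI (left) and RANKL minus WENRC (right); filled points were called and the diamond (Reg3b) is given without a test. The Defa genes lie to the right of 0 in both panels, whereas Reg3b, Reg3a, Reg1 and Reg3d lie to the left in the first alone.

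Of 16 genes listed for the pathways known to raise Reg3 genes, inhibitors included, 15 were tested. In RANKL, 1 rose and 3 fell against ENRI (median -0.33), where 10.4% and 10.5% of all tested genes did. Against WENRC, 2 rose and 1 fell (median 0.08), where 8.53% and 3.62% of all tested genes did. Il22ra1, the epithelial chain of the IL-22 receptor, had 7.26 and 7.12 in RANKL, 10.73 and 11.47 in ENRI and 9.53 and 9.06 in WENRC. It fell in RANKL by 3.91 against ENRI (SE 0.28, FDR 0.00204) and by 2.11 against WENRC (SE 0.28, FDR 0.0097), opposite to Reg3g in both, while against ENRI Reg1, Reg3a and Reg3d fell too. Its partner chain Il10rb changed by -1.05 (FDR 0.0266) and the MyD88-pathway kinase Irak4 by -0.85 (FDR 0.0212) against ENRI. Il6st, the shared signalling receptor gp130, rose by 1.15 (FDR 0.0197) and 1.25 (FDR 0.0219), and the kinase Jak2 rose by 1.15 over WENRC (FDR 0.0127). Stat3 itself changed by -0.55 against ENRI (FDR 0.0571). Without RANKL 1 or RANKL 2 the count over ENRI was 0 higher with 1 and 0 lower, and over WENRC 0 in either direction; leaving out WENRC 1 or WENRC 2 also left 0 over WENRC. With only the 4 libraries compared, 4 rose and 4 fell against WENRC. Of all 16563 tested genes, 5194 were then called, 3002 of them higher, in place of 2012 with 1412 higher.

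Of 20 other epithelial defence genes, 9 were tested. Nos2, the inducible nitric oxide synthase, rose in RANKL by 1.73 (FDR 0.00215) and 1.19 (FDR 0.00684). Lypd8, which keeps flagellated bacteria from the epithelium, changed by -3.23 (FDR 0.00343) and -1.68 (FDR 0.0228). Zg16, a goblet cell lectin, rose by 3.36 over WENRC (FDR 0.00303) and changed by -1.0 against ENRI (FDR 0.056). The median changes of the 9 were -0.24 and -0.13.

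Marker lists of other sources of these genes were read beside them. The enterocyte list summed to 16.25 and 17.15 in ENRI, 15.38 and 15.50 in RANKL and 14.08 and 13.25 in WENRC, the order of Reg3b, Reg3a and Reg1. The M cell list was at 14.78 and 14.86 in RANKL against 10.71 to 11.52 elsewhere, as Reg3g, Reg4 and Mmp7 were highest there. Both sums leaned on their highest genes. Sis alone had 14.52 and 15.45 in ENRI, and Esrrg alone had 14.02 and 14.12 in RANKL. The goblet list stood at 13.64 and 13.69 in RANKL, 13.37 and 13.88 in ENRI and 11.05 and 11.97 in WENRC, and the enteroendocrine list at 10.69 and 11.11, 9.45 and 10.25, and 9.14 and 9.87. The part of these cell types in the results was not tested. The pancreatic acinar list lay between 7.83 and 8.37 in all 6 libraries, with Ptf1a listed at 0 in each and 5 of 12 genes tested (highest value 6.83, Cela1), and 1 of the 5 was called lower in RANKL than in ENRI. That gene, the lipase Pnlip, had 5.98 and 6.53 in ENRI, 3.41 and 3.68 in RANKL and 2.97 and 3.35 in WENRC, the order of Reg1; RANKL minus ENRI was -2.71 (FDR 0.00348). The leukocyte list lay between 9.19 and 9.78, with 9 of 12 tested and 1 called higher in RANKL than in ENRI. Of 8 fibroblast markers 1, Pdgfrb, was tested, and the list summed to 9.28 and 9.32 in RANKL and 6.91 to 7.90 elsewhere. Pdgfrb alone had 9.21 and 9.26 in RANKL, so the sum there was nearly that of this gene.

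H3K27me3 was compared by the authors as regions of one culture called against the other, from 32.7 M tags in pooled RANKL and 36.3 M in WENRC, whose tags were scaled by 0.9. Folds and p-values here are those of the authors' deposited table; with 1 WENRC library there is no replicate check. Of 35798 RANKL-higher regions, 6 were named for 2 of the 9 genes, and of 13607 WENRC-higher regions 7 were named for 4; 32.3% and 23.3% of tested genes had such a region. None was named for Reg1, Reg3a, Lyz1 or Mmp7, and 0 regions of either table lay inside the 98.0 kb Reg cluster.

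Reg4 had 5 of the 6 RANKL-higher regions, 3 of them inside the gene: in intron 2 at chr3:98029222-98030042 (42 tags in RANKL against 17.1 scaled tags in WENRC) and chr3:98030582-98032820 (85 against 28.8), and in intron 3 at chr3:98034321-98034821 (20 against 6.3). The other two lay 19.4 and 27.8 kb from the start, past the gene's end, at 27 tags against 9.0 and 8.1. Together they covered 4.85 kb with 201 tags in RANKL against 69.3, at the authors' folds of 2.46 to 3.33. Of tested genes, 8.56% (1417 of 16563) had at least 5 such regions. One WENRC-higher region lay at -13.7 kb from the start (29.7 against 9 tags, authors' fold 3.3). Reg4 transcription was higher in RANKL than in WENRC, as given above, and these called regions had more H3K27me3 tags in RANKL; the rest of the introns was not analysed here.

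**Figure D4:**
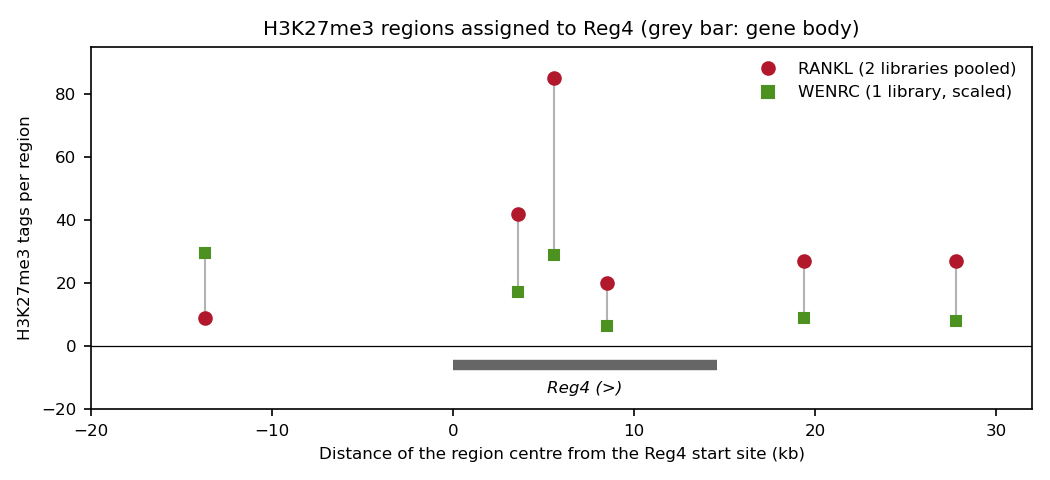
H3K27me3 tags in the 6 regions named for Reg4, against the distance in kb of the region's centre from the start site; circles are pooled RANKL, squares are WENRC scaled to the RANKL depth, and the grey bar is the gene body. RANKL lies above WENRC in the 5 regions downstream of the start (85 against 28.8 at the highest) and below it at -13.7 kb.

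Itln1 had the other RANKL-higher region, in intron 2 at chr1:173463598-173464382, 1.4 kb from the start, with 36 tags against 10.8 (authors' fold 3.33, p 1.24e-09). The WENRC-higher regions at Reg3b and Reg3g lay outside the cluster: at -57.3 kb from the start of Reg3b (15.3 against 2 tags, authors' fold 7.65) and at -78.6, -86.7 and -105.4 kb from that of Reg3g (authors' folds 3.96, 5.18 and 3.0). Lyz2 had 2 WENRC-higher regions, across its last exon (27 against 10 tags, authors' fold 2.7) and at -3.0 kb from its start (18 against 4, authors' fold 4.5). The latter lies between Lyz2 and the end of Lyz1, within 5 kb of both genes. RANKL tags of WENRC-higher regions carry a floor. The median fold of the authors' deposited tables was 2.92 for RANKL-higher and 3.30 for WENRC-higher regions. So among the 9 genes, a region touching the gene body was found for Reg4, Itln1 and Lyz2 alone.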

How the data were processed

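The deposited GRO-seq values are log2. Per the file headers, reads were counted by the authors over whole RefSeq genes (mm9) with HOMER and normalized with getDiffExpression.pl. The submitters' processing notes name Bowtie2 2.3.4.1, HOMER and DESeq2 without roles. The transform, read filters and strand handling are not given in the sources used here. The authors' log2 changes and each p-value are copied from the deposited table, signs turned to first-named minus second-named. In the deposited H3K27me3 tables, RANKL tags are counts for RANKL-higher regions and tags with a floor for WENRC-higher regions. Folds of WENRC-higher regions with few RANKL tags may therefore rest on that floor. The scaled WENRC tags are a signal, and the fold is the authors' ratio of the 2.

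Genes with at least 2 libraries at log2 of 10 (16563) were fitted with limma 3.58.1 (R 4.3.3; no pseudocount, variance trend, 3 group means over 6 libraries), tested on simulated data first, and called at an FDR under 0.05, two-sided. Nothing says that the 2 libraries of a culture are separate cultures beyond the mouse number, so p-values measure the spread between these libraries. The 9 genes, the gene lists and the motifs were chosen with earlier results of these data known. From each list the text names up to 4 genes of smallest p, and any few that fell. Some genes these rules name are not reported here. Alternatives were other filters, scalings, fits, a replicate block and leaving out each library. Same-numbered ENRI and WENRC libraries come from 1 mouse and deviated together (r 0.414 over genes), whereas RANKL numbers did not pair with them (-0.205 and -0.323). Windows were aligned end to end with Biopython 1.88.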

Additional observations from a re-analysis of the deposited data

Results flagged for a closer look

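For 2 of the 9 genes the change from ENRI to WENRC had opposite signs in the 2 mice; the difference was not tested. Lyz1 was higher in WENRC by 0.94 in mouse 1 and changed by -0.03 in mouse 2. Itln1 was higher in WENRC by 0.38 in mouse 1 and changed by -0.70 in mouse 2.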

How the results depend on the processing

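Of the settings tried, 3 turned a direction, each by leaving out an ENRI library and none of a called change. Itln1, not called at 0.24, ran from -0.35 (without ENRI 1) to 0.82 (without ENRI 2) in RANKL minus ENRI. In WENRC minus ENRI, Lyz1 went from 0.46 to -0.48 without ENRI 1 and Itln1 from -0.16 to 0.42 without ENRI 2. The counts depended on which libraries set the spread. With only the 4 libraries compared, the genes called for RANKL versus ENRI were 1925 in place of 3464. For RANKL versus WENRC they were 5194 in place of 2012, and 6 in place of 3 of the 8 genes other than Reg3b passed. For WENRC versus ENRI they were 0 in place of 2416 (4074 at an unadjusted p under 0.05). No count of the 9 genes is given for WENRC versus ENRI, the contrast that chose them. Leaving out 1 library gave 64 to 6966, 0 to 5176 and 0 to 6650 genes in the 3 comparisons (at an unadjusted p under 0.05, 2486 and 2702 where the second was 0 without a RANKL library), and 0 to 7 and 0 to 6 of the 8 genes in the RANKL comparisons and 0 to 7 of the 9 in the last. The authors' deposited adjusted p called 4604 genes for RANKL versus WENRC, and 5 of the 8. With the mouse or replicate number as a replicate block, 1506 genes were called for WENRC versus ENRI over 6 libraries and 124 over 4; the block added Reg3a against WENRC (FDR 0.037) and ended no RANKL call of the 8 genes. Higher calls were 70.2% of RANKL versus WENRC calls (58.7% after quantile normalization, 62.7% on upper quartiles) and 33.2% of WENRC versus ENRI calls (51.8% and 46.6%), with the members' RANKL calls as before. H3K27me3 regions at the 9 genes numbered 0 and 3 at a fold of at least 4, against 6 and 7. Within 5 kb of the start they numbered 2 and 2. Overlap with a gene and 5 kb on each side gave 5 and 3, added up gene by gene. The WENRC-higher region between Lyz1 and Lyz2 was counted for both genes. GRO-seq depth is unknown, so no limit from depth can be given.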
